A study of Mus musculus with 8 samples.

Results

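Adenosine production and sensing was described by 8 genes, chosen by name, in RNA-seq of regulatory T cells (Tregs) from mouse peripheral blood, and all 8 were found among the 56980 genes of the count table. They comprised the ectoenzymes Entpd1 (CD39) and Nt5e (CD73), the receptors Adora2a and Adora2b, adenosine deaminase (Ada), Dpp4 (CD26), adenosine kinase (Adk) and the nucleoside transporter Slc29a1 (ENT1). The study compared mice in high altitude de-acclimatization (HADA), the return to low altitude after a long stay at altitude, with control mice, and the labels gave 4 libraries to each group. The mice were male C57BL/6j animals purchased at 8 weeks of age, and those of the HADA group were kept for 28 days under hypobaric hypoxia at a simulated 6000 m. Tregs were sorted by flow cytometry and their cDNA was made with a kit for low input. The day of sorting after the return was not stated, and neither was whether each library came from a separate animal, so that the p-values measure only the spread between libraries.

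Extracellular ATP is a danger signal that CD39 breaks down to AMP, and CD73 then turns AMP into adenosine. Tregs of the mouse carry both enzymes, and adenosine from them acts on the receptors of Adora2a and Adora2b, which raise cyclic AMP and restrain effector T cells. The signal ends when adenosine is taken up through nucleoside transporters, deaminated to inosine by Ada or phosphorylated to AMP by Adk. CD26 is a surface peptidase that, in humans, also holds Ada at the cell surface.

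The libraries differed in depth and in background before any gene was compared. Total counts were 1477431, 14452433, 22584062 and 21587245 in control replicates 1 to 4, and 28240337, 22929193, 25230994 and 26590026 in HADA replicates 1 to 4. Control replicate 1 thus stood apart with the smallest total, and a floor of 3 counts corresponded to 1.86 CPM (counts per 1000000 of the TMM-scaled library size) there, against 0.0939 to 0.18 CPM in the other libraries. As a measure of reads outside expressed genes, the density of counts was taken over those 1587 genes of olfactory and vomeronasal receptors that share no base with another gene. It came to 0.0492, 0.337, 0.288 and 0.202 CPM per kb in control replicates 1 to 4, and to 0.209, 0.184, 0.169 and 0.12 CPM per kb in HADA replicates 1 to 4. Control replicate 1 had the lowest density, and control replicates 2 and 3 the highest. Since counts were taken over whole gene spans, introns included, this density gives a scale for counts that need no transcript of the gene itself, but no lower bound, since several adenosine genes had fewer counts than it gives for their length.

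Markers of the sorted cells were checked against the label. Foxp3, the defining factor of Tregs, is covered to 100% by spans of other genes, and was listed at 0 in all 8 libraries, so that it could not serve as a check. Il2ra (CD25) was present at 178, 10.5, 7.23 and 59.5 CPM in control replicates 1 to 4, and at 309, 163, 287 and 748 CPM in HADA replicates 1 to 4. Summed over 9 Treg and T cell genes, led by Cd3g and with 8 of 9 above 0, the level was 1999.1, 314, 750.1 and 1531.4 CPM in the control libraries and 3675.2, 2355, 6046.1 and 7499 CPM in the HADA libraries. The leading gene of each list is named over all 8 libraries pooled. Ikzf2 was the largest part in control replicates 2 and 3, at 211 and 287 CPM, with Cd3g at 5.1 and 50.4 CPM. Trac was the largest part in control replicates 1 and 4, at 477 and 539.5 CPM. Every HADA library was above every control library in this sum, and control replicates 2 and 3 were the lowest. None of the 8 T cell genes tested passed the thresholds in edgeR, with 4 of 8 at an unadjusted p below 0.05, where 26.7% of all genes were, and 4 of 8 called higher in DESeq2, where 11.2% of all genes were. In bulk RNA, fewer cells of a type and less RNA per cell cannot be told apart.

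Markers of other blood cells were also present. For its co-culture assay the paper defines sorted Tregs as positive for CD4 and CD25, and blood for cytometry underwent red cell lysis. Its RNA-seq section names no markers for the sort. The 6 B cell genes, led by Cd79a and with Ms4a1 at 0 (covered to 100% by other genes), summed to 2599.4, 99.1, 398 and 1106.7 CPM in control replicates 1 to 4 and to 1188.5, 963, 2423.8 and 3283.5 CPM in HADA replicates 1 to 4. Here control replicates 1 and 4 lay among the HADA libraries, and control replicates 2 and 3 were again the lowest. Both CD8 T cell genes were found, led by Cd8b1, with sums of 0.621 to 2.76 CPM in control and 14.5 to 176 CPM in HADA libraries. Cd8a was at 0.158 and 0.251 CPM in HADA replicates 1 and 2, within the control range of 0 to 0.629 CPM. In HADA replicates 3 and 4 it was at 27.4 and 66.2 CPM. Cd8b1 rose in HADA (log2 fold change 4.97, SE 1.0, edgeR adjusted p = 0.0301), with 4 of 4 HADA libraries above the whole control group, and its adjusted p was 0.0556 to 0.131 without control replicate 2, 3 or 4 or HADA replicate 1 or 3, at log2 fold changes of 4.87 to 5.24. It was 0.0833 with the replicate block (4.81), 0.119 after drawing down (3.51) and 0.103 after subtracting receptor gene density (12.18). Among globin genes of red cells, Hba-a1 was at 10915.3, 246, 1071.3 and 1913.5 CPM in control replicates 1 to 4 and at 1024.3, 438, 88.2 and 87.7 CPM in HADA replicates 1 to 4, with control replicate 1 the highest and the groups overlapping. Its log2 fold change was −3.11 (SE 1.19, edgeR adjusted p = 0.139, DESeq2 adjusted p = 0.0122), and that of Hbb-bs was −3.35 (SE 1.16, edgeR adjusted p = 0.119, DESeq2 adjusted p = 0.00515). The 5 platelet genes, led by Ppbp, summed to 42.3 to 469.8 CPM in control and 267 to 1662.1 CPM in HADA libraries. The 9 monocyte and macrophage genes, led by Lyz2, gave 82.4 to 1799.6 CPM in control and 897 to 3549.3 CPM in HADA libraries. Lower sums were found for the 5 NK genes, led by Gzma, at 5.24 to 103 CPM in control and 1.59 to 377 CPM in HADA libraries, for the 6 neutrophil genes, led by Cxcr2, at 4.51 to 76.5 and 15.2 to 141 CPM, and for the 4 dendritic cell genes, led by Flt3, at 6.55 to 16.3 and 4.85 to 47.8 CPM. The part of these cells in the values of the adenosine genes was not tested.

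The comparison of HADA with control asked whether the adenosine genes of blood Tregs differ after the return from altitude. None of the 8 passed the thresholds in edgeR (a log2 fold change beyond 1 and, after Benjamini-Hochberg adjustment, a p below 0.05), where 2.13% of the 21991 genes tested did. By fold change, the largest difference was that of Dpp4, with a mean of 106 CPM in HADA and 22.5 CPM in control, followed by Adora2b and Nt5e, while Adk had the lowest fold change. Dpp4 was also the only 1 of 8 with an unadjusted p below 0.05, a mark that 26.7% of all genes reached. DESeq2 called 1 of 8 higher in HADA, again Dpp4, and none lower, against 11.2% and 19.3% of all genes, and limma called 0 of 8, against 4.05%. In no adenosine gene did the groups separate, whereas the HADA group was wholly above the control group for 9.13% of genes and wholly below it for 5.7%. Without control replicate 1, edgeR called 1 of 8 higher, which was Dpp4, and none lower, where 15.5% and 19.7% of 24048 genes were called, and 1 of 8, Dpp4 again, had all HADA libraries above control replicates 2 to 4, against 18.3% of genes. These counts are near or under the background of the whole table. Over the 8 genes the median log2 fold change was 0.36, with 5 positive, and over all genes tested it was 0.015.

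**Figure D1:**
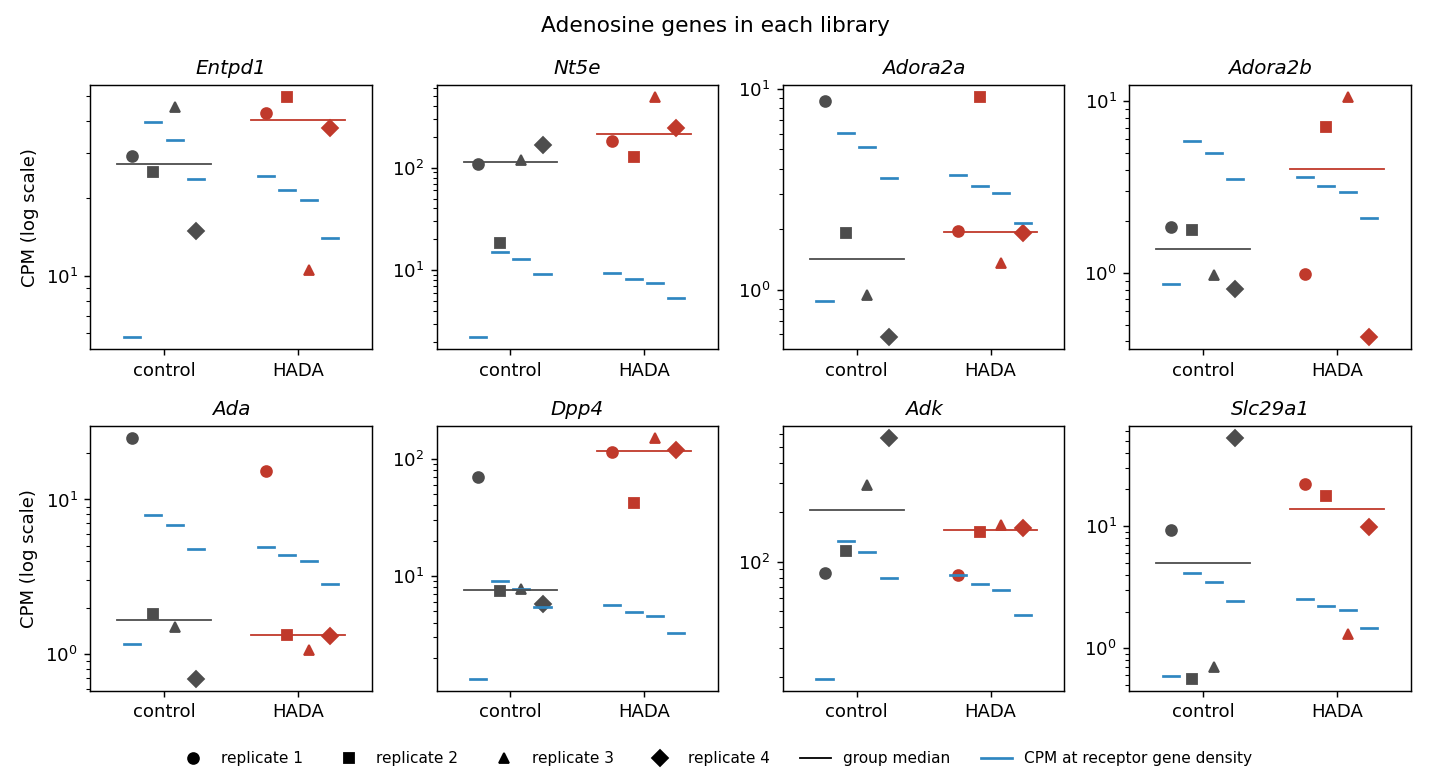
CPM (log axis) of the 8 adenosine genes in each library, with control in grey and HADA in red, marker shapes for replicates 1 to 4, a line at each group's median and a blue dash at the CPM that the density of receptor genes gives for the same length. Dpp4 is at the dash in control replicates 2 to 4 and well above it in control replicate 1 and the 4 HADA libraries.

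Entpd1 (ENSMUSG00000048120, chr19:40600810-40730046, plus strand, GRCm39) encodes CD39, the enzyme of the first step. It was measured at 29.2, 25.4, 45.3 and 14.9 CPM in control replicates 1 to 4, and at 42.9, 49.6, 10.5 and 37.6 CPM in HADA replicates 1 to 4. The groups overlapped across most of their range, with the lowest value of all in HADA replicate 3. Mean levels were 35.1 ± 17.1 CPM in HADA and 28.7 ± 12.6 CPM in control (SD, n = 4 each). The log2 fold change of 0.29 (SE 0.79, edgeR adjusted p = 0.815) corresponded to 1.22-fold with a 95% confidence interval of 0.372 to 4.03, so that a change of several fold in either direction was within the error. Its sign turned to −0.51 when at least 10 counts were required in every library and to −0.55 when all libraries were drawn down to the smallest total. Against the density of receptor genes, Entpd1 counts were 5.07, 0.642, 1.34 and 0.628 times what its length gives in control replicates 1 to 4, and 1.75, 2.31, 0.531 and 2.68 times in HADA replicates 1 to 4. Control replicates 2 and 4 and HADA replicate 3 were thus below the density of receptor genes. Relative to 100 CPM of the summed T cell markers, Entpd1 was at 1.46, 8.08, 6.04 and 0.972 CPM in control replicates 1 to 4 and at 1.17, 2.11, 0.174 and 0.501 CPM in HADA replicates 1 to 4, with overlap between the groups and the higher mean in control. Because the marker sum was higher in every HADA library than in every control library, this scale lowers the HADA values of any gene.

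Nt5e (ENSMUSG00000032420, chr9:88209250-88254145, plus strand) encodes CD73, which makes adenosine from AMP. Levels were 109, 18.5, 120.3 and 167 CPM in control replicates 1 to 4, and 181, 126, 491 and 243 CPM in HADA replicates 1 to 4. All 4 HADA libraries were above the control mean, but control replicate 4 lay above HADA replicate 2, and the spread of the HADA group came mainly from replicate 3. Means were 260.3 ± 161 CPM in HADA and 104 ± 62.2 CPM in control, a log2 fold change of 1.33 (SE 0.81, edgeR adjusted p = 0.284) or 2.51-fold with an interval of 0.738 to 8.51. The exact two-sided permutation test of the means gave p = 0.0571. Nt5e counts were 49.6, 1.22, 9.3 and 18.4 times the receptor gene density in the control libraries and 19.4, 15.4, 64.7 and 45.2 times in the HADA libraries, well above it except in control replicate 2. With this density subtracted from every gene, the median log2 fold change of the genes tested moved to 1.01, and Nt5e lay at 0.74, which is −0.27 relative to that median. Per 100 CPM of the summed T cell markers, Nt5e was at 5.47, 5.89, 16 and 10.9 CPM in control replicates 1 to 4 and at 4.93, 5.37, 8.11 and 3.24 CPM in HADA replicates 1 to 4, so that on this scale the groups overlapped and the control libraries had the higher mean. Within libraries, the ratio of Entpd1 to Nt5e per kb was 0.102, 0.525, 0.144 and 0.0341 in control replicates 1 to 4 and 0.0906, 0.15, 0.00821 and 0.0593 in HADA replicates 1 to 4. Per kb of counted span, introns included, Nt5e was thus above Entpd1 in every library, although in control replicate 2 neither stood far from the receptor gene density, and the ratios of the groups overlapped.

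**Figure D2:**
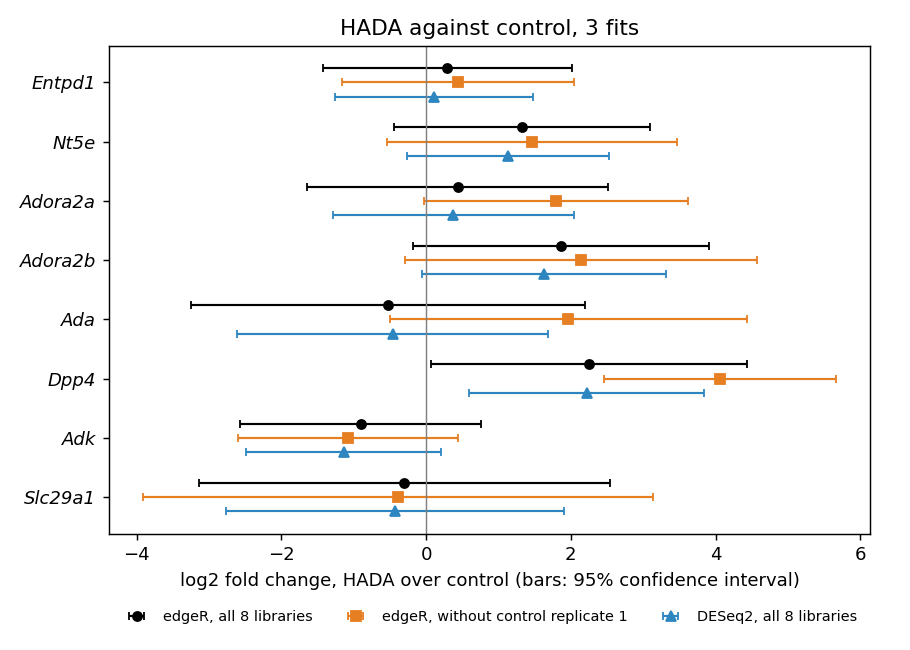
Log2 fold change of HADA over control for the 8 adenosine genes, with 95% confidence intervals, in edgeR with all 8 libraries (black), in edgeR without control replicate 1 (orange) and in DESeq2 (blue). The interval of Dpp4 lies above 0 in the 3 fits, while Ada moves from −0.52 to 1.97 once control replicate 1 is left out. The 2 alternatives drawn are those that called Dpp4. In fits not drawn, its interval included 0 with at least 10 counts in every library, after drawing down and after subtracting receptor gene density. It also included 0 without control replicate 2, 3 or 4 or HADA replicate 1, 3 or 4, and lay above 0 in the remaining fits.

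Adora2a (ENSMUSG00000020178, chr10:75152711-75170618, plus strand), the high-affinity receptor that couples to cyclic AMP, was low in most libraries. It was measured at 8.7, 1.91, 0.943 and 0.579 CPM in control replicates 1 to 4, and at 1.97, 9.13, 1.36 and 1.92 CPM in HADA replicates 1 to 4. A single library in each group, control replicate 1 and HADA replicate 2, was high, and the value in control replicate 1 rested on 14 counts. Its log2 fold change was 0.44 (SE 0.96, edgeR adjusted p = 0.77), or 1.35-fold with an interval of 0.319 to 5.74. Without control replicate 1 it was 1.80, without HADA replicate 2 it was −0.49, and with at least 10 counts required in every library it was −0.04. Only control replicate 1 and HADA replicate 2, at 9.88 and 2.78 times, were above the receptor gene density, and the other 6 libraries were between 0.16 and 0.898 times.

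Adora2b (ENSMUSG00000018500, chr11:62139810-62157279, plus strand), the low-affinity receptor, stood at 1.86, 1.78, 0.978 and 0.811 CPM in control replicates 1 to 4, and at 0.986, 7.08, 10.6 and 0.421 CPM in HADA replicates 1 to 4. HADA replicates 2 and 3 were high, HADA replicates 1 and 4 were within or below the control range, and control replicate 1 held only 3 counts, which is its floor. The log2 fold change was 1.86 (SE 0.94, edgeR adjusted p = 0.216), or 3.63-fold with an interval of 0.878 to 15.0, and the exact two-sided permutation p was 0.371. In limma its log2 fold change was 0.80, and in edgeR it was 1.02 with the replicate block and 1.26 to 2.38 with a library left out, the lowest of these without HADA replicate 3. HADA replicates 2 and 3 were at 2.21 and 3.58 times the receptor gene density, while HADA replicates 1 and 4 and control replicates 2 to 4 were between 0.194 and 0.303 times. Control replicate 1 was at 2.17 times, level with HADA replicate 2, but from 3 counts, with an exact Poisson 95% interval of 0.448 to 6.34. In HADA replicates 1 and 4 and control replicates 2 to 4 the receptor was therefore not detectable above the density of genes that T cells do not use. Per 100 CPM of the summed T cell markers, Adora2b was at 0.0933, 0.568, 0.13 and 0.053 CPM in control replicates 1 to 4 and at 0.0268, 0.301, 0.175 and 0.00561 CPM in HADA replicates 1 to 4. The groups overlapped on this scale. The control libraries had the higher mean through control replicate 2, and without that library the HADA mean was the higher. Adora1, the inhibitory receptor, had at most 100 counts in a library (log2 fold change −0.25, SE 0.69, edgeR adjusted p = 0.815), and Adora3 is covered to 99.9% by other genes and was listed at 0.

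Ada (ENSMUSG00000017697, chr2:163568504-163592159, minus strand) encodes the deaminase that turns adenosine into inosine. It was measured at 24.9, 1.82, 1.5 and 0.695 CPM in control replicates 1 to 4, and at 15.2, 1.34, 1.06 and 1.32 CPM in HADA replicates 1 to 4. Again 1 library in each group was high, replicate 1 in both, and the other 6 were low and overlapped. The log2 fold change of −0.52 (SE 1.25, edgeR adjusted p = 0.791) became 1.97 without control replicate 1 and −2.70 without HADA replicate 1. Its interval ran from 0.106 to 4.6-fold, and DESeq2 gave no p for Ada. The high libraries were at 21.4 and 3.08 times the receptor gene density and the low ones between 0.145 and 0.468 times.

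Dpp4 (ENSMUSG00000035000, chr2:62160417-62242575, minus strand) encodes CD26. An antisense non-coding gene, Gm13561, overlaps it, and 67.1% of its span lies in spans of other genes, so that counts came from the remaining 26998 bases, which hold 55.4% of its exon bases. Levels were 69.0, 7.48, 7.69 and 5.79 CPM in control replicates 1 to 4, from 111, 239, 220 and 100 counts, and 113, 41.5, 149 and 119 CPM in HADA replicates 1 to 4, from 2874, 990, 2519 and 1973 counts. Control replicates 2 to 4 were low and alike, control replicate 1 was high, and the groups overlapped only through it, since it lay above HADA replicate 2. Mean levels were 106 ± 45.5 CPM in HADA and 22.5 ± 31 CPM in control (SD, n = 4 each). The log2 fold change was 2.25 (SE 1.0), or 4.76-fold with a 95% confidence interval of 1.05 to 21.5, with an unadjusted p of 0.0438 and an adjusted p of 0.178 in edgeR. All 4 HADA libraries were above the control mean, and the exact two-sided permutation p was 0.0571. DESeq2 gave a log2 fold change of 2.22 (adjusted p = 0.0308), which is 2.42 relative to its median of −0.20 over all genes, and edgeR without control replicate 1 gave 4.06 (SE 0.70, adjusted p = 0.00889). With each other library left out, edgeR gave log2 fold changes of 1.96 to 2.57 (adjusted p 0.193 to 0.361). Over the alternatives tried, the adjusted p ran from 0.00889 to 0.951.

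Counts of Dpp4 in control replicates 2 to 4 were 0.823, 0.989 and 1.06 times the receptor gene density, and thus not detectable above it. In control replicate 1 they were 52 times this density, and in HADA replicates 1 to 4 they were 20.1, 8.37, 32.6 and 36.7 times. The summed T cell markers had the same low libraries in control replicates 2 and 3 but not in control replicate 4. Per 100 CPM of these markers, Dpp4 was at 3.45, 2.38, 1.02 and 0.378 CPM in control replicates 1 to 4, and at 3.08, 1.76, 2.46 and 1.58 CPM in HADA replicates 1 to 4. On this scale control replicate 1 was the highest of the 8 libraries, control replicate 2 lay within the HADA range, and control replicates 3 and 4 were below it. The part of T cell RNA content in the Dpp4 values was not tested. Dpp4 per kb exceeded Ada per kb in every library, at 2.43, 3.61, 4.48 and 7.3 times in control replicates 1 to 4 and 6.54, 27.1, 123 and 78.6 times in HADA replicates 1 to 4, and these ratios overlapped between the groups.

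**Figure D3:**
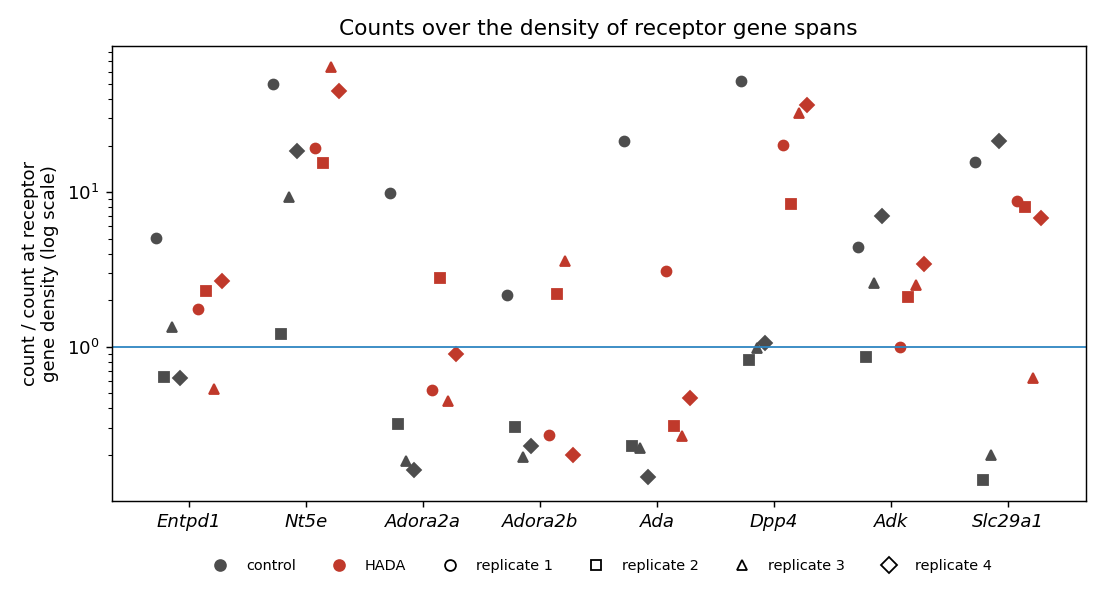
Counts of each adenosine gene divided by the counts that the density of olfactory and vomeronasal receptor genes gives for its counted length (log axis), per library, with control in grey and HADA in red and the blue line at a ratio of 1. Nt5e is above the line in all 8 libraries, and Adora2a, Adora2b and Ada are below it in most.

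Adk (ENSMUSG00000039197, chr14:21102642-21498637, plus strand) encodes the kinase that returns adenosine to AMP. It spans 395996 bases, and exons make up 2.55% of its counted length. Levels were 85.8, 116, 293 and 562 CPM in control replicates 1 to 4, and 82.8, 152, 168 and 161 CPM in HADA replicates 1 to 4. Control replicates 3 and 4 were the highest, and the other control libraries lay within the HADA range. Means were 141 ± 39.5 CPM in HADA and 264 ± 219 CPM in control, a log2 fold change of −0.90 (SE 0.76, edgeR adjusted p = 0.428) or 0.534-fold with an interval of 0.169 to 1.69. For Adk the log2 fold change was −0.16 without control replicate 4, −1.66 with at least 10 counts in every library (edgeR unadjusted p = 0.0357, adjusted p = 0.177) and −1.72 after drawing down (unadjusted p = 0.0297, adjusted p = 0.206), and over all alternatives its adjusted p ran from 0.177 to 0.951. Per 100 CPM of the summed T cell markers, Adk was at 4.29, 36.8, 39.1 and 36.7 CPM in control replicates 1 to 4 and at 2.25, 6.48, 2.78 and 2.15 CPM in HADA replicates 1 to 4. Control replicates 2 to 4 were above all HADA libraries on this scale, and control replicate 1 lay within the HADA range. Adk counts were 4.41, 0.866, 2.57 and 7.02 times the receptor gene density in the control libraries and 1.0, 2.1, 2.51 and 3.41 times in the HADA libraries, which places control replicate 2 and HADA replicate 1 at it. The ratio of Ada to Adk per kb was above 1 in replicate 1 of both groups, at 4.85 in control and 3.07 in HADA, and between 0.0207 and 0.263 in the other 6 libraries.

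Slc29a1 (ENSMUSG00000023942, chr17:45896126-45910532, minus strand) encodes ENT1, which carries adenosine across the membrane down its gradient. It was measured at 9.32, 0.564, 0.699 and 52.5 CPM in control replicates 1 to 4, and at 22.3, 17.8, 1.3 and 9.92 CPM in HADA replicates 1 to 4. Control replicate 4 was the highest of all and control replicates 2 and 3 the lowest, so that the control group enclosed the HADA group, and the highest library was 93.2 times the lowest. The log2 fold change was −0.30 (SE 1.31, edgeR adjusted p = 0.886), or 0.812-fold with an interval of 0.113 to 5.83. It became 2.04 without control replicate 4 and 0.17 without HADA replicate 3, and limma gave 0.73. Control replicates 2 and 3 and HADA replicate 3 were below the receptor gene density, at 0.138, 0.2 and 0.633 times, and the other 5 libraries were between 6.83 and 21.4 times.

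On the scale of the T cell markers, Adora2a, Ada and Slc29a1 also had the higher mean in control, with overlap between the groups. With all 8 libraries, Dpp4 alone of the 8 genes thus had the higher mean in HADA there. The marker sum itself was higher in every HADA library, at 2355 to 7499 CPM, against 314 to 1999.1 CPM in control libraries. Division by this sum lowers the HADA values of any gene relative to control. How many of all genes have the higher mean in control on this scale was not tested. Some directions of the adenosine genes rested on single libraries. Without control replicate 4 the order of the means turned for Slc29a1 and Dpp4, and without control replicate 2 for Adora2b. Slc29a1 was at 3.43 CPM in control replicate 4, 0.0931 to 0.466 CPM in the other control libraries and 0.0215 to 0.758 CPM in HADA libraries. Levels of the 8 genes were compared as CPM per kb of counted span. In HADA libraries the order by median was Nt5e at 4.72 (range 2.82 to 10.9), Dpp4 at 4.3 (1.54 to 5.51), Slc29a1 at 1.14 (0.107 to 1.83), Adk at 0.396 (0.209 to 0.425), Entpd1 at 0.343 (0.0897 to 0.423), Adora2b at 0.231 (0.0241 to 0.605), Adora2a at 0.109 (0.0759 to 0.51) and Ada at 0.0563 (0.0449 to 0.642). The HADA ranges of Nt5e and Dpp4 lay wholly above those of Adk, Entpd1, Ada and both receptors, whereas the ranges of neighbours in this order overlapped. Within each of the 4 HADA libraries, Dpp4 was also above Slc29a1. In control libraries Nt5e was also first by median, at 2.56 (0.412 to 3.73), followed by Adk at 0.516 (0.217 to 1.42), Slc29a1 at 0.412 (0.0464 to 4.32) and Dpp4 at 0.281 (0.215 to 2.55). Entpd1 at 0.233 (0.127 to 0.387), Adora2a at 0.0797 (0.0324 to 0.486), Adora2b at 0.0791 (0.0464 to 0.107) and Ada at 0.0701 (0.0294 to 1.05) came last, and neighbours overlapped here too. Since introns are part of the span, the order depends on the share of exons in it, which was 2.55% of counted bases for Adk, 4.76% for Entpd1, 19.2% for Nt5e and 55.9% for Slc29a1.

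Across the 8 libraries, Pearson's r of log2 CPM between adenosine genes was 0.62 for Dpp4 and Nt5e, −0.75 for Ada and Adk and −0.27 for Entpd1 and Nt5e. Among 16318 protein-coding genes, the gene whose levels were most like those of Dpp4 was Uqcrfs1 (r = 0.997). For the others these genes were Mdm1 for Entpd1 (r = 0.932), Pacs1 for Nt5e (r = 0.978), Zftraf1 for Adora2a (r = 0.99), Zfp131 for Adora2b (r = 0.981), Tmem176b for Ada (r = 0.983), Sat1 for Adk (r = 0.983) and Dph7 for Slc29a1 (r = 0.986). These values are descriptions over 8 libraries that differ in depth and background.

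Promoters were read from GRCm39, from 250 bases before to 50 bases after the start of the canonical transcript in GENCODE vM39, on the strand of the gene. A search of both strands for ACGTG or GCGTG, the core of hypoxia response elements, found it in 3 of 8 adenosine genes, namely Adora2b, Ada and Slc29a1, and in 48% of 21757 promoters. TGACNNNGC, the core of antioxidant response elements, was in 0 of 8 and in 12.5% of all promoters, and TGACGTCA, the cyclic AMP response element, in 0 of 8 and in 2.45%. The sequences are the promoter of Dpp4 (chr2:62242526-62242825, minus strand), the gene with the largest difference, and those of the receptor Adora2b (chr11:62139554-62139853, plus strand) and the transporter Slc29a1 (chr17:45906645-45906944, minus strand), with matches to the hypoxia core in capitals. A match describes letters in this window and nothing of a factor's binding.
Dpp4: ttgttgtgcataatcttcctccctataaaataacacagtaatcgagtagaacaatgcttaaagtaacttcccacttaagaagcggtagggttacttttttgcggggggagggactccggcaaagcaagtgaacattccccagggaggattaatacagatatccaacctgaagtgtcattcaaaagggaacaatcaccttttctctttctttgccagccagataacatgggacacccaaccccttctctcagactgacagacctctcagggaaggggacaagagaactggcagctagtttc
Adora2b: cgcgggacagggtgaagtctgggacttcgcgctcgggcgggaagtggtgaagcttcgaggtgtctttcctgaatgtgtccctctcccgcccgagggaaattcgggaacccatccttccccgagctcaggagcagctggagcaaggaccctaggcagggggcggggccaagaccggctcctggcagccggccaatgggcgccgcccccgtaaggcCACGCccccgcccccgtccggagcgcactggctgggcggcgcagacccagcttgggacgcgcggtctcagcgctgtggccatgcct
Slc29a1: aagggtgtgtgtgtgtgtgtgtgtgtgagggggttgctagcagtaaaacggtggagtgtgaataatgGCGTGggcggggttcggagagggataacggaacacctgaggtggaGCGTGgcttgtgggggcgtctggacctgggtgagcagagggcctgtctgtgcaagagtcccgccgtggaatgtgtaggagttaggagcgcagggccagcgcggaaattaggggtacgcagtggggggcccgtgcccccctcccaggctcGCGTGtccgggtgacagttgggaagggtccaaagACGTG

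The wider pathway was described by lists of related genes, and none of their genes passed the thresholds in edgeR. Of 11 ectonucleotidases and NAD hydrolases tested from 15 listed, 3 had an unadjusted p below 0.05, against 26.7% of all genes, and the median log2 fold change was 1.19. Art2a, not tested, is covered to 100% by other genes and was listed at 0. Cd38, an NAD hydrolase that feeds another route to adenosine, was at 78.9, 9.61, 7.06 and 31.8 CPM in control replicates 1 to 4 and at 138, 124, 198 and 215 CPM in HADA replicates 1 to 4. Every HADA library was above every control library, with a log2 fold change of 2.42 (SE 0.90, edgeR adjusted p = 0.133). Entpd3, a relative of CD39, had 1.95 (SE 0.80, edgeR adjusted p = 0.158). DESeq2 called both of them higher, 2 of 11 against 11.2% of all genes, and none lower, against 19.3%. Without control replicate 1 edgeR called 4 of 11 higher, namely Cd38, Enpp4, Entpd3 and Entpd6, against 15.5% of all genes, and none lower, against 19.7%.

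Among nucleoside transporters, 5 of 6 were tested, 1 had an unadjusted p below 0.05 (26.7% of all genes) and the median log2 fold change was 0.21. Slc29a4, a transporter of monoamines and adenosine, was at 3.11, 2.19, 1.19 and 1.04 CPM in control replicates 1 to 4 and at 30.6, 31.6, 29.0 and 2.71 CPM in HADA replicates 1 to 4. HADA replicate 4 fell within the control range, and the other HADA libraries were all high (log2 fold change 3.69, SE 0.96, edgeR adjusted p = 0.0667, DESeq2 adjusted p = 3.19e-04). Slc28a1, a concentrative transporter, had no overlap between the groups (1.46, SE 0.72, edgeR adjusted p = 0.208). DESeq2 called 1 of 5 higher, Slc29a4, beside 11.2% of all genes, and none lower, beside 19.3%. Without control replicate 1 edgeR called 1 of 6 higher, Slc29a4, and 1 of 6 lower, Slc28a3, beside 15.5% and 19.7% of all genes.

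For intracellular purine salvage and breakdown, 24 of the 26 genes found were tested, 4 had an unadjusted p below 0.05 (26.7% of all genes), 19 had a positive log2 fold change and the median was 0.69. Pnp2, not tested, is covered to 100% by other genes and was listed at 0. Nt5c3b, a cytosolic nucleotidase, had a log2 fold change of 3.79 (SE 1.2, edgeR adjusted p = 0.104), and Adss1, of AMP synthesis, 4.38 (SE 1.46, edgeR adjusted p = 0.113), both with all HADA above all control libraries. DESeq2 called 3 of 24 higher, these and Ak3, and 2 of 24 lower, Gda and Nt5c1b, where 11.2% and 19.3% of all genes were called. In edgeR without control replicate 1, 5 of 25 were called higher and none lower, where 15.5% and 19.7% of all genes were called.

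Receptors for extracellular nucleotides and the ATP channel Panx1 had the highest median of these lists, 1.99 over 8 of 12 genes tested, all 8 positive and 3 with an unadjusted p below 0.05 (26.7% of all genes). Among those not tested, P2ry12, P2ry13 and P2ry14 are covered to 100% by other genes and were listed at 0, so that their level is unknown. Among the marker lists, the median log2 fold change was 2.20 for Treg and T cell genes, with 8 of 8 positive, 2.46 for platelet genes, 5.46 for CD8 T cell genes, 2.13 for NK, 1.89 for neutrophil, 1.24 for monocyte and macrophage, 0.73 for B cell and 0.38 for dendritic cell genes. It was −3.45 for red cell genes, with 0 of 5 positive, among them the globin genes Hba-a1 and Hbb-bs at −3.11 and −3.35. The part of these cells in the values of the nucleotide receptors was not tested. P2rx7, the channel that extracellular ATP and NAD-dependent ribosylation open on T cells, was at 6.84, 6.83, 4.4 and 4.06 CPM in control replicates 1 to 4 and at 40.0, 43.3, 31.2 and 67.8 CPM in HADA replicates 1 to 4. Here control replicate 1 was low like the other control libraries, and the groups did not overlap. The log2 fold change was 3.05 (SE 0.78), with an adjusted p of 0.063 in edgeR, 4.48e-05 in DESeq2 and 0.0331 in limma, and up to 0.689 over the alternatives tried. P2ry1, an ADP receptor, was high in HADA replicate 1 and near 0 in HADA replicate 3 (4.08, SE 1.21, edgeR adjusted p = 0.0896). In DESeq2, 3 of 8 were called higher, namely P2rx1, P2rx7 and P2ry1, against 11.2% of all genes, and none lower, against 19.3%. Without control replicate 1 edgeR called 5 of 9 higher, with P2rx4 and P2ry10 added, against 15.5% of all genes, and none lower, against 19.7%.

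Of the 27 genes of cyclic AMP signalling below the receptors, all were tested, 22 had a positive log2 fold change, 6 had an unadjusted p below 0.05 (26.7% of all genes) and the median was 0.71. Gnas, the stimulatory G protein, had a log2 fold change of 2.21 (SE 0.77, edgeR adjusted p = 0.119) with no overlap of the groups, although 44.1% of its span is covered by other genes. Prkaca, the catalytic subunit of protein kinase A, had 2.07 (SE 0.77, edgeR adjusted p = 0.134). DESeq2 called 4 of 27 higher and none lower, compared with 11.2% and 19.3% of all genes. With control replicate 1 left out, edgeR called 6 of 27 higher and none lower, compared with 15.5% and 19.7% of all genes. The HADA group was wholly above the control group for 1 of 11, 1 of 5, 2 of 24, 3 of 8 and 3 of 27 genes of these 5 lists, in the order given, beside 9.13% of all genes.

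**Figure D4:**
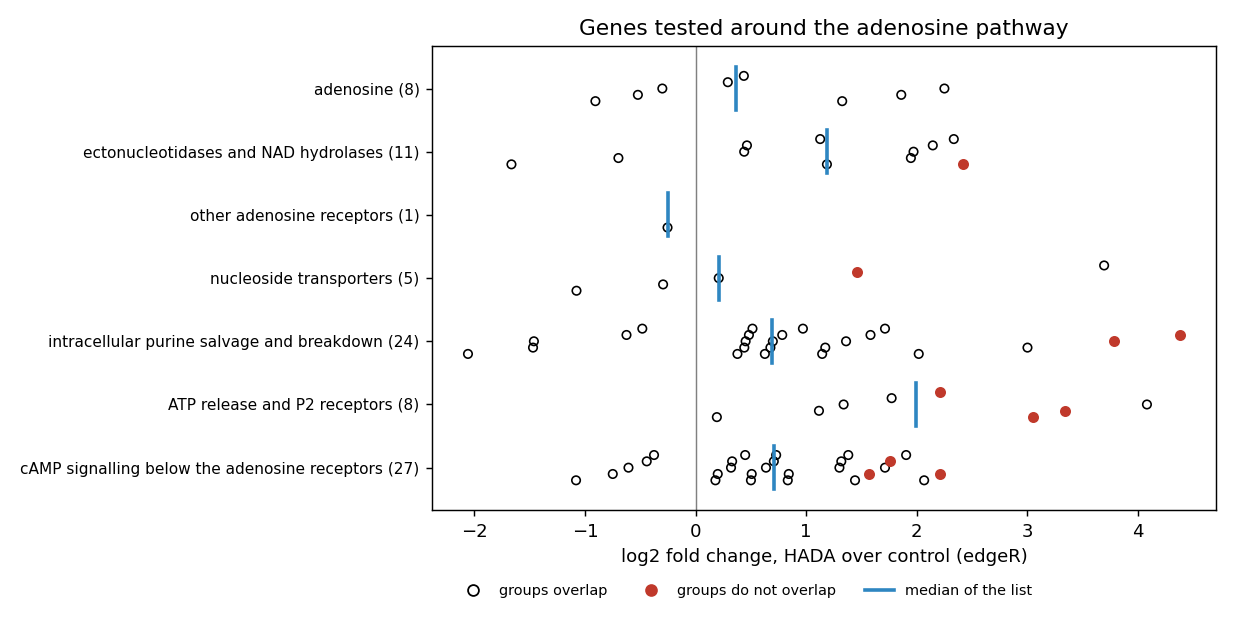
Log2 fold change of HADA over control in edgeR for every gene tested from the adenosine genes and 6 lists around them, with the number tested in brackets, filled red points where the groups do not overlap and a blue line at each list's median. The nucleotide receptors have the highest median, 1.99, and no gene shown passed the thresholds.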

How the data were processed

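Per the labels, the authors used FastQC, Trimmomatic, STAR with GRCm39 and featureCounts, and deposited a table of raw counts per gene. The counted length equals the whole gene span for 100% of genes, and reads in regions shared by genes were largely not counted. The strand and multi-mapping settings were not stated. Gene names came from GENCODE vM39 (98.7% of identifiers), and gene coordinates are those of the table. Of the named genes, 60.6% have the same coordinates in GENCODE vM39, from which the promoter starts were taken. The adenosine genes and the lists were chosen with earlier results of these data known. From each list the 2 tested genes with the smallest p were named where none passed the thresholds, and the markers were the lists fixed for blood cells.

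Libraries were grouped by their labels, and all 8 were used. edgeR 4.0.16 (TMM, filterByExpr, quasi-likelihood test, no covariates) in R 4.3.3 tested 21991 genes, with Benjamini-Hochberg adjustment over all of them. Log2 CPM used a prior count of 2. Alternatives were DESeq2 1.42.0, its size factors in edgeR, limma 3.58.1 on log2(CPM + 1), a filter of at least 10 counts per library, no filter, totals drawn down to the lowest one (seed 1), receptor gene density subtracted, a replicate block, and leaving out every library in turn. Counts over the lists with DESeq2 and without control replicate 1 were alternatives chosen after seeing the data. The methods were tested on simulated data, of which no result is given here. Python 3.11.15 with pandas 2.3.3 and numpy 2.4.6 made the other tables. Floors cover counting error only.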

Additional observations from a re-analysis of the deposited data

Results flagged for a closer look

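In 4 of 20 groups of 4 libraries tested, a single library lay far from the others of its group by Dixon's criterion, where chance gives 1 in 20. The log2 CPM of Ada was 3.93 in HADA replicate 1 and 0.22 to 0.52 in the other HADA libraries. For Dpp4 it was 6.11 in control replicate 1 and 2.56 to 2.96 in the other control libraries. For Adk it was 6.37 in HADA replicate 1 and 7.25 to 7.39 in the other HADA libraries. The log2 total count was 20.49 in control replicate 1 and 23.78 to 24.43 in the other control libraries. What set these libraries apart was not tested.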

How the results depend on the processing

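Of 121 fits of single adenosine genes under the alternatives, 110 kept the direction and the side of the thresholds, 2 brought Dpp4 past them (DESeq2 and the fit without control replicate 1) and 9 turned the direction. Entpd1 turned to −0.51 with at least 10 counts in every library and −0.55 after drawing down, Adora2a to −0.04 with at least 10 counts, and Slc29a1 to 0.73 in limma and 1.11 with the replicate block. With each library left out, log2 fold changes ranged from −0.49 to 1.80 for Adora2a, −2.70 to 1.97 for Ada and −0.75 to 2.04 for Slc29a1. The number of adenosine genes called higher was 1 in DESeq2 and 0 to 1 with a library left out, and the number with all HADA above all control libraries was 1 without control replicate 1. Over all genes, 363 were called higher, against 2457 in DESeq2, 814 in limma, 93 with at least 10 counts, 126 after drawing down, 96 after subtracting receptor gene density, 158 with the replicate block and 28 to 3716 with a library left out. Lower were 105, against 4247 in DESeq2, 54 without a filter, 11 with the replicate block and 1 to 4732 with a library left out. All HADA libraries were above all control libraries for 2008 genes, for 1052 with CPM from total counts and for 4412 without control replicate 1. They were below all control libraries for 1254 genes, for 1521 with CPM from total counts and for 6456 without control replicate 1. Fewer genes were tested with at least 10 counts, after drawing down and after subtraction, where 7, 5 and 5 adenosine genes remained; the cause of the other shifts was not tested. Over all genes the median log2 fold change was −0.19 with DESeq2's size factors, −0.37 without a filter, 0.13 in limma and 1.01 after subtraction, relative to which Dpp4 was at 1.40, Entpd1 at −0.35, Adk at −2.92 and Slc29a1 at −1.36. Deviations from the group mean in libraries of the same number correlated at −0.207, 0.252, −0.081 and −0.003 for replicates 1 to 4, while HADA replicate 1 and control replicate 2 gave 0.216. Such correlations over 4 libraries in each group cannot tell whether libraries of the same number were paired. With 1477431 counts, control replicate 1 cannot show differences under its floor of 1.86 CPM.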
